A study of Mus musculus with 11 samples.

Results

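Neurotransmitter receptors divide into ionotropic receptors, ion channels built from several subunits that open when the transmitter binds, and G protein-coupled receptors, which signal through second messengers. Trimethylation of histone H3 at lysine 27 (H3K27me3) is deposited by Polycomb repressive complex 2, spreads over CpG-rich promoters of developmental genes and goes with low transcription. The ganglionic eminences, divided into a medial (MGE), a caudal (CGE) and a lateral (LGE) part, are ventral forebrain zones that produce GABAergic neurons, whereas the cortical wall (CTX) produces glutamatergic neurons, and receptors become abundant as these neurons mature.

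The genes described are the protein-coding genes on chromosomes 1 to 19 whose symbols begin with the stems of the GABA (Gabr, Gabbr), glutamate (Gria, Grik, Grin, Grid, Grm), acetylcholine (Chrn, Chrm), serotonin (Htr), dopamine (Drd) and adrenergic (Adra, Adrb) receptors. The rule found 92 of 20807 protein-coding genes: 18 for GABA, 26 for glutamate, 21 for acetylcholine, 13 for serotonin, 5 for dopamine and 9 for noradrenaline. Of these, 51 encode ionotropic subunits and 40 encode G protein-coupled receptors. The remaining gene carries a receptor stem in its symbol but encodes a protein that binds a receptor.

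H3K27me3 was profiled by CUT&Tag, in which an antibody directs a transposase to cut and tag the DNA of marked nucleosomes, in nuclei from wild-type C57BL/6J mouse embryos with no treatment. The labels list 2 MGE, 3 CGE, 3 LGE and 3 CTX samples, give no age to a single sample, and name embryonic days 12.5 and 14.5 in the shared protocol, of which the study's text gives the earlier for its CUT&Tag. According to that protocol equal numbers of nuclei from the regions were pooled, whereas each sample is labelled as 1 region. The reads of each region had been merged before broad peaks were called, so 1 peak list stood for each region. No replicate error, and therefore no test between regions, could be had from the lists, and every difference below is a difference between single lists.

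On chromosomes 1 to 19 the lists held 14978 peaks over 24 Mb (MGE), 18726 over 32.2 Mb (CGE), 16461 over 25.9 Mb (LGE) and 18263 over 30.5 Mb (CTX). The files hold no read numbers. By the library depths in the study's methods, summed per region, CGE was sequenced most deeply, followed by CTX, LGE and MGE, the same order as the list sizes, and the part of depth in the differences between lists was not tested. A list is a mixture of cell types, and in it the share of cells with the mark cannot be told apart from its level per cell. The region labels were examined at marker genes. The MGE gene Lhx6 had the lowest coverage in MGE (69.2%, against 100% in the other lists) and the cortical gene Emx1 had the lowest in CTX (87.1%, against 98.9 to 100%). Nkx2-1, which defines the MGE, was under peaks over 100% of its window in every list, MGE included. The pan-eminence gene Dlx2 was lower in MGE (16.4%) but no lower in CGE and LGE (44.8 and 41.4%) than in CTX (41.6%). Nr2f2, enriched in the CGE, had 27.3 to 27.6% in CGE, LGE and CTX and 59.7% in MGE. Gad1 and Neurod6 were uncovered in the 4 lists. Lhx6 in MGE and Emx1 in CTX thus differed in the direction of the label, Dlx2 did so in MGE alone of the eminences, and no marker separated CGE from LGE. MGE was also the list with the fewest covered bases, and the part of list size in its low values was not tested.

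Coverage is the percent of bases under peaks. It was measured in a window of 2 kb on either side of the annotated 5' end of the gene (4000 bases), and over the gene body. A window is called marked where peaks take up 50% or more of it.

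The upstream DNA of 5 receptor genes is printed here. These stretches lie directly 5' of an annotated RefSeq or GENCODE start, in the GRCm38.p6 build, and capitals mark CpG dinucleotides. Grik3 had the highest mean window coverage of the receptor genes, Htr7 and Gabra2 differed in opposite directions between CTX and the eminences, and Chrm4 and Grik5 were the most CpG-rich windows with no covered base at the gene record's 5' end. Grik3 is read on the plus strand (chr4:125490446-125490695), Htr7 on the minus strand (chr19:36057508-36057610), Gabra2 on the minus strand (chr5:71095850-71096099), Chrm4 on the plus strand (chr2:91921939-91922188) and Grik5 on the minus strand (chr7:25072370-25072619).
Grik3: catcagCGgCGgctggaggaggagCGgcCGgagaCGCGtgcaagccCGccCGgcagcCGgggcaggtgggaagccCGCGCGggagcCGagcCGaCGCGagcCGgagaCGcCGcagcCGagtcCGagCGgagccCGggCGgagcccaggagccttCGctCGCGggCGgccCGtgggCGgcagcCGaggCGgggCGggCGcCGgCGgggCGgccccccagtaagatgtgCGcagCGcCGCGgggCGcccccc
Htr7: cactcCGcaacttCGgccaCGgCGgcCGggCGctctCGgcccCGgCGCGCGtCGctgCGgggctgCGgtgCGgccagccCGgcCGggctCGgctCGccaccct
Gabra2: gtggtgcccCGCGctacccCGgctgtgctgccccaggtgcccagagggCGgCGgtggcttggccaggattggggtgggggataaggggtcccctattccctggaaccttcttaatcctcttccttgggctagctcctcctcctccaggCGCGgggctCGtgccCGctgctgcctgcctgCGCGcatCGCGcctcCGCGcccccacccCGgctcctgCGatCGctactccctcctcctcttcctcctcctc
Chrm4: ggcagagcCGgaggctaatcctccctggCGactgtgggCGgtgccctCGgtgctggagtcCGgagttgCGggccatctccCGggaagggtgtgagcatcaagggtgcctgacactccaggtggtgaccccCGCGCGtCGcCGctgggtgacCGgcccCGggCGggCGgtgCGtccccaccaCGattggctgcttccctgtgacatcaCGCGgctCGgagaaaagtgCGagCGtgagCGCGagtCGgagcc
Grik5: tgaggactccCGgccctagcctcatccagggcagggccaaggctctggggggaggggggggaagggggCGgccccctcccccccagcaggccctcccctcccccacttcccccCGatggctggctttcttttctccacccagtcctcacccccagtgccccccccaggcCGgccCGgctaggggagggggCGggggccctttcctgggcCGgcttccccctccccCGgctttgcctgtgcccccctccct

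The Grik3 stretch held 42 CpG dinucleotides in 250 bases, a number reached by 0.865% of the 32851 promoters in the table at that length, and all of it lay under peaks in the 4 lists. The Htr7 stretch of 103 bases held 19 CpG, a number reached by 0.578% of promoters at that length. It lay wholly under a peak in CTX and had no covered base in MGE, CGE or LGE. The Gabra2 stretch held 18 CpG (reached by 21.7% of promoters) and showed the opposite arrangement. It was covered over 100% in MGE and CGE, 13.2% in LGE and 0% in CTX. The Chrm4 stretch lies before a RefSeq start 5060 bases upstream of the gene record's 5' end, and so outside the Chrm4 window. It held 26 CpG (9.59% of promoters) and was covered over 100% in every list, whereas the window had no covered base. The Grik5 stretch held 8 CpG (43.0% of promoters) and was free of peaks in the 4 lists. The 5' end of a neighbouring gene, Zfp574, also lay in the Grik5 window.

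Receptor genes were marked more often than protein-coding genes at large. Of the 92 windows, MGE marked 36 (39.1%, against 10.0% of all genes), CGE 45 (48.9%, against 12.6%), LGE 34 (37.0%, against 10.5%) and CTX 40 (43.5%, against 11.2%). In all 4 lists 27 were marked (29.3%, against 7.77%), and in at least 1 list 50 (54.3%, against 14.9%). Conversely, 23 receptor genes (25%) had no covered base in the window of any list, against 59.9% of all genes. The mean window coverage of the receptor genes was 35.5, 41.0, 37.0 and 40.3% in MGE, CGE, LGE and CTX, beside 11.8, 13.7, 12.3 and 13.1% for all genes. The 92 potassium channel genes, another large family of neuronal membrane proteins, had similar or higher numbers, with 57 marked in at least 1 list and 37 in all 4. High marking was therefore shared with another class of neuronal genes.

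**Figure D1:**
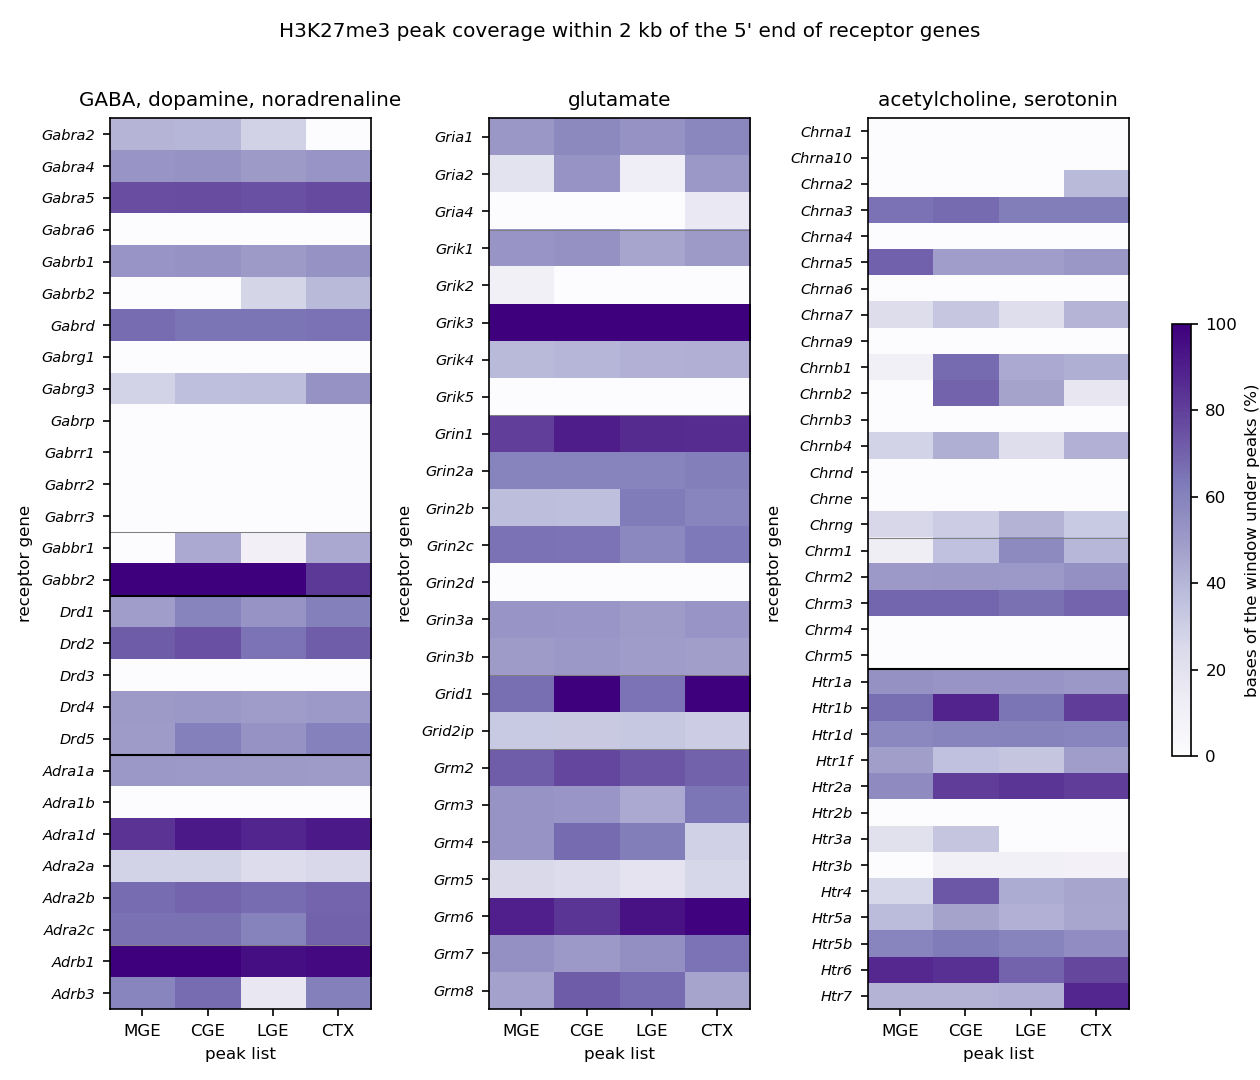
Percent of bases within 2 kb of the 5' end that lay under H3K27me3 peaks, for 86 of the 92 receptor genes (rows) in each of the 4 lists (columns), grouped by transmitter and family. Rows such as Grik3, Gabbr2 and Adrb1 are dark in every list, 21 rows are blank throughout, and most rows keep 1 shade across the lists.

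The 50% line ran through a dense part of the distribution. Between 16 and 20 receptor genes per list lay within 5 points of it. The nearest values were 50.6% for Chrm2 and 49.9% for Drd4 in MGE, 50.4% for Grm7 in CGE, 50.5% for Chrm2 and 49.9% for Gabra4 in LGE, and 50.7% for Drd4 and 49.8% for Grik1 in CTX. Drd4, a D2-class dopamine receptor, had a peak that filled the downstream side of the window, with 98.2 to 100% covered there and 0 to 1.60% upstream, and so moved across the line between lists. A count of marked genes in a single list therefore carries several genes whose side of the line depended on a few bases.

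Coverage of the receptor genes lay mainly inside the gene. The downstream 2 kb was covered over 50.7, 57.3, 53.1 and 56.5% on average in MGE, CGE, LGE and CTX, and the upstream 2 kb over 20.3, 24.8, 20.8 and 24.1%. Among windows with a covered base, the downstream side was the more covered in 55 of 63 receptor genes (MGE), 56 of 65 (CGE), 55 of 65 (LGE) and 56 of 66 (CTX). These shares, 84.6 to 87.3%, stood beside 67.6 to 70.5% for all genes with a covered base. In bins of 200 bases the coverage of receptor genes peaked 300 to 900 bases inside the gene, at 58.6, 63.7, 60.4 and 63.5% in the order MGE, CGE, LGE and CTX. It was down to 3.58 to 4.70% at 2100 bases upstream and to 9.35 to 11.8% at 3100 bases downstream.

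**Figure D2:**
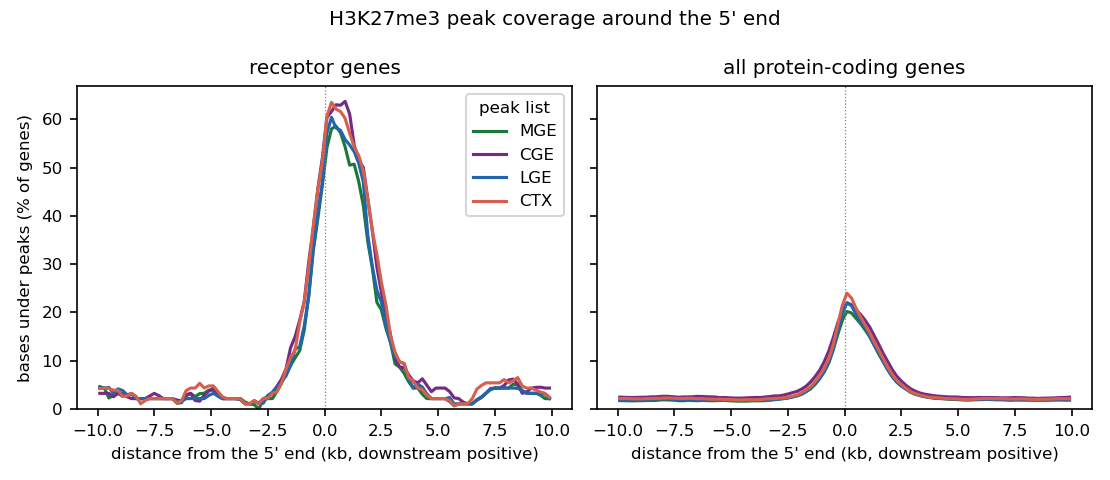
Mean coverage by H3K27me3 peaks in bins of 200 bases from 10 kb upstream to 10 kb downstream of the 5' end, for the receptor genes (left) and all protein-coding genes (right), with 1 line per list. The receptor curve peaks downstream of the 5' end at 58.6 to 63.7%. The lists lie apart near the peak (54.3% in MGE and 63.7% in CGE at 900 bases) and on its downstream slope (22.1% in MGE and 32.0% in CTX at 2300 bases).

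By signalling type, G protein-coupled receptors were marked more often than channel subunits. Of the 40 G protein-coupled receptors 29 were marked in at least 1 list and 17 in all 4, and of the 51 ionotropic subunits 21 and 10. Mean window coverage was 48.1 to 54.3% across lists for the former and 25.7 to 30.8% for the latter. All 8 receptors that couple to Gs and raise cyclic AMP, among them Drd1, Drd5, Adrb1, Adrb3, Htr4, Htr6 and Htr7, were marked in at least 1 list. The same held for 15 of 21 Gi-coupled and 5 of 10 Gq-coupled receptors. Htr5b, marked in all 4 lists, was not assigned to any of these couplings. G protein-coupled receptors also had more CpG dinucleotides in the window, with a median of 106 against 80.0 for ionotropic subunits, and the part of this difference in the counts was not tested.

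**Figure D3:**
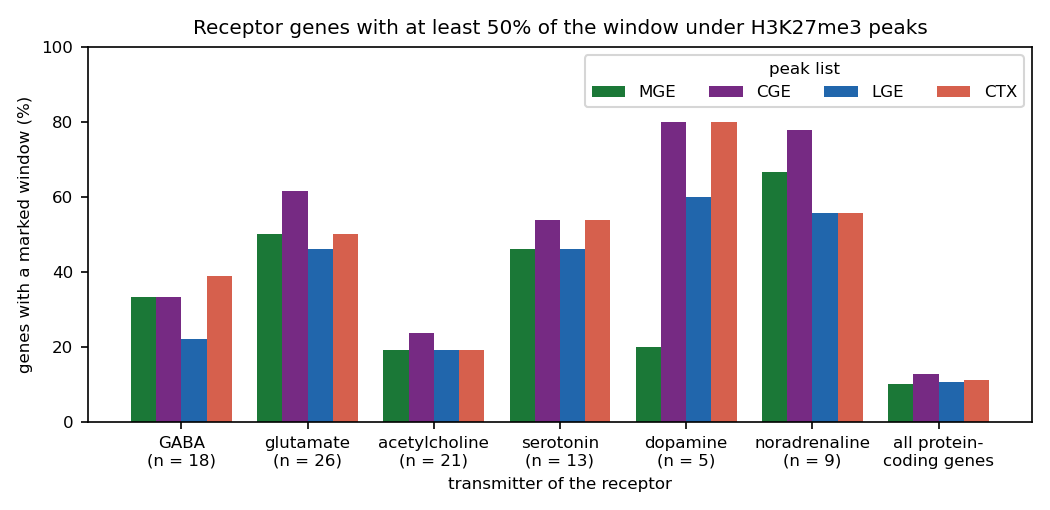
Percent of receptor genes whose window was marked (at least 50% of bases under peaks), by transmitter and list, with all protein-coding genes at the right; bars start at 0 and n is the number of receptor genes. Adrenergic receptors stand at 55.6 to 77.8% and cholinergic receptors at 19 to 23.8%, against 10.0 to 12.6% for all genes.

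Among the GABA receptors, which carry most fast and slow inhibition, 7 of 18 were marked in at least 1 list and 4 in all 4. The metabotropic GABA-B receptor is an obligate pair of GABBR1 and GABBR2, and its 2 genes differed. Gabbr2, which encodes the G protein-coupling partner, was covered over 100% in MGE, CGE and LGE and 82.0% in CTX. Gabbr1, which encodes the GABA-binding partner, had 0% (MGE), 44.2% (CGE), 9.70% (LGE) and 44.6% (CTX). The peaks on Gabbr1 were weak, with a fold enrichment over background of 2.53 to 2.57 and a −log10 q of 1.67 to 2.32. The peaks on Gabbr2 reached a −log10 q of 31.4 to 95.8.

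The GABA-A receptor is a chloride channel of 5 subunits, drawn from 16 genes here. Gabra5, an alpha subunit of extrasynaptic receptors, had the highest mean, with 76.0, 76.4, 75.0 and 76.7% in MGE, CGE, LGE and CTX. Gabrd, whose delta subunit mediates tonic inhibition, had 67.0, 64.7, 64.7 and 65.5%. Both genes were marked in every list. Gabra4 and Gabrb1 are transcribed in opposite directions from neighbouring 5' ends and shared 1 peak of 1997 to 2132 bases, so their near-equal values (49.9 to 53.1% and 49.9 to 53.3%) are 1 observation. Of the gamma subunit genes, Gabrg1 had no covered base and Gabrg3 had 28.1, 36.6, 37.1 and 52.8%. Gabrg1 belonged to the group without the mark at either the window or the body. So did Gabra6 of cerebellar granule cells, Gabrp, and 2 of the 3 rho subunits, Gabrr2 and Gabrr3.

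Several GABA-A genes lie in clusters in which covered and uncovered genes stood side by side. On chromosome 11, Gabrb2 was partly covered in LGE and CTX and Gabra6 was uncovered. On chromosome 5, Gabra4 and Gabrb1 shared their peak, Gabra2 was partly covered outside CTX, and Gabrg1 was uncovered. The peaks named here thus lay at 5' ends and did not run across the cluster.

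Glutamate receptors were marked in at least 1 list in 17 of 26 cases and in all 4 lists in 9. Grik3, a kainate receptor subunit, was the only receptor gene with its whole window covered in every list, under peaks 5722 to 7765 bases wide. Its peak fold was modest, at 1.75 to 1.94, with a −log10 q of 11.5 to 46.4. Its family was divided. Grik1 had 52.0, 53.6, 45.8 and 49.8% and Grik4 38.3 to 41.8%, whereas Grik2 had 9.30% in MGE and 0% elsewhere and Grik5 had 0% throughout.

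NMDA receptor genes were marked in 6 of 7 cases. Grin1, the subunit that every NMDA receptor requires, had 80.2, 90.4, 86.0 and 85.7%. Grin2a, the subunit that rises after birth, had 59.1 to 61.4%, and Grin2c, a subunit of the cerebellum, had 57.6 to 65.3%, both in all 4 lists. Grin2b, the main GluN2 subunit before birth, had 37.0% (MGE), 36.4% (CGE), 62.6% (LGE) and 58.8% (CTX). Its value at the gene record's 5' end thus separated MGE and CGE from LGE and CTX, over a range of 26.3 points. At the best covered of all coding transcript starts the range was 22.4 points. Grin3a and Grin3b, subunits that lower calcium permeability, lay at 49.3 to 52.2% and 48.1 to 51.0%.

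AMPA receptors carry most fast excitation. Gria1 had 51.4, 57.2, 52.9 and 58.1%. Gria2, whose edited subunit makes the channel impermeable to calcium, had 19.4% in MGE and 12.0% in LGE but 52.6% in CGE and 51.0% in CTX. Gria4 was covered only in CTX, at 15.3%. The delta receptor gene Grid1 was fully covered in CGE and CTX (100% each) and covered over 66.7% in MGE and 65.0% in LGE.

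The metabotropic glutamate receptors were marked in 6 of 8 cases. Grm6, which serves the ON bipolar cells of the retina, led them with 89.7, 82.9, 93.8 and 98.9%. Grm2, a presynaptic Gi-coupled receptor, had 70.0 to 77.8%, and Grm7, another presynaptic receptor, had 50.4 to 65.1%. The Gi-coupled receptors Grm3 and Grm8 were marked in 3 and 2 lists, at 44.4 to 64.4% and 46.6 to 71.5%. The Gq-coupled Grm5 was not marked, at 18.6 to 26.4%.

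The adrenergic receptors, which respond to noradrenaline and adrenaline, were marked in 7 of 9 cases. Adrb1, the cardiac beta receptor, had 99.9% (MGE), 100% (CGE), 95.0% (LGE) and 96.5% (CTX), and its window held the most CpG dinucleotides of any receptor gene, 292. Adra1d had 83.6 to 91.5%, Adra2b 66.8 to 69.2% and Adra2c 59.9 to 70.3%, all in every list. Adra2a, the Gi-coupled receptor on noradrenergic terminals, had 23.4 to 28.0% of its window covered, all of it on the downstream side, under a peak of 4538 to 4748 bases that covered 78.0 to 81.8% of its body. Adra1a lay between 49.6 and 50.8%.

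Of the 5 dopamine receptors 4 were marked in at least 1 list. Drd2, the Gi-coupled receptor of striatal indirect-pathway neurons, was marked in every list with 71.7, 75.0, 65.1 and 71.3%. Drd1, the Gs-coupled receptor of direct-pathway neurons, had 48.5, 59.5, 52.7 and 60.7%. In LGE, where striatal neurons are born, Drd2 had its lowest value and Drd1 a middle one. Drd5 had 49.4 to 60.7%, and Drd3 had no covered base in the window.

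Of the 13 serotonin receptors 8 were marked in at least 1 list and 6 in all 4. Htr6 had the highest mean, with 86.9, 85.1, 69.8 and 77.7%. The Gi-coupled Htr1b had 64.5 to 88.6%, Htr1d 57.7 to 59.9% and Htr1a 51.0 to 53.9%. Htr2a, a Gq-coupled cortical receptor, had 55.9% in MGE and 80.5 to 83.2% elsewhere, and Htr5b had 55.4 to 62.5%. The serotonin-gated channel genes were low. Htr3a, a marker of CGE-derived interneurons, had 20.7% in MGE and 33.8% in CGE and no covered base in LGE or CTX, and Htr3b had 0 to 9.03%. Htr2b had none.

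Acetylcholine receptors were marked least often, in 7 of 21 cases. The muscarinic genes Chrm2 (50.5 to 54.2%) and Chrm3 (65.8 to 69.4%), whose products couple to Gi and Gq, were marked in every list. Of the 16 nicotinic subunit genes 4 were marked in any list. Chrna3, the ganglionic alpha subunit, was the only one marked in all 4, with 65.4, 67.6, 61.8 and 62.1%. It lies in a cluster with Chrna5 (70.7, 48.6, 48.6 and 51.5%) and Chrnb4 (22.1 to 42.7%), with which it forms receptors. Windows without a covered base numbered 10 of 21, a share (47.6%) below the 59.9% of all genes. Among them were the muscle subunits Chrna1, Chrnd and Chrne, the hair-cell subunits Chrna9 and Chrna10, and Chrna6 and Chrnb3, which are found together in dopaminergic neurons.

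Genes that serve the same transmitters were measured from separate lists. Of 29 genes for transmitter synthesis, packaging and uptake 15 were marked in at least 1 list and 11 in all 4. Slc32a1, the vesicular GABA transporter, had 85.8, 100, 88.6 and 100%, and Slc6a4, the serotonin transporter, had 95.8 to 99.0%. Of 31 genes for receptor partners such as auxiliary subunits and scaffolds 17 were marked in at least 1 list and 9 in all 4. These shares were near those of the receptor genes themselves.

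Between lists, 16 receptor genes (17.4%) differed by at least 25 points of window coverage, against 9.15% of all genes. Windows without a covered base cannot differ, and among those with one the shares were alike, 16 of 69 receptor genes (23.2%) and 1904 of 8334 genes (22.8%). MGE held the lowest value for 9 of the 16 and CGE the highest for 8. Among the genes of the whole table that differed by as much, MGE was lowest for 48.7% and CGE highest for 47.6%, so this order was that of the lists in general. At its ends the order matched the number of bases the lists covered, of which MGE had the fewest and CGE the most. The middle lists did not follow it, since CTX was lowest for 34.9% of those genes and LGE for 32.8%, although CTX covered more bases. The genes were therefore also measured in lists cut to equal size, with the outcomes given below.

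**Figure D4:**
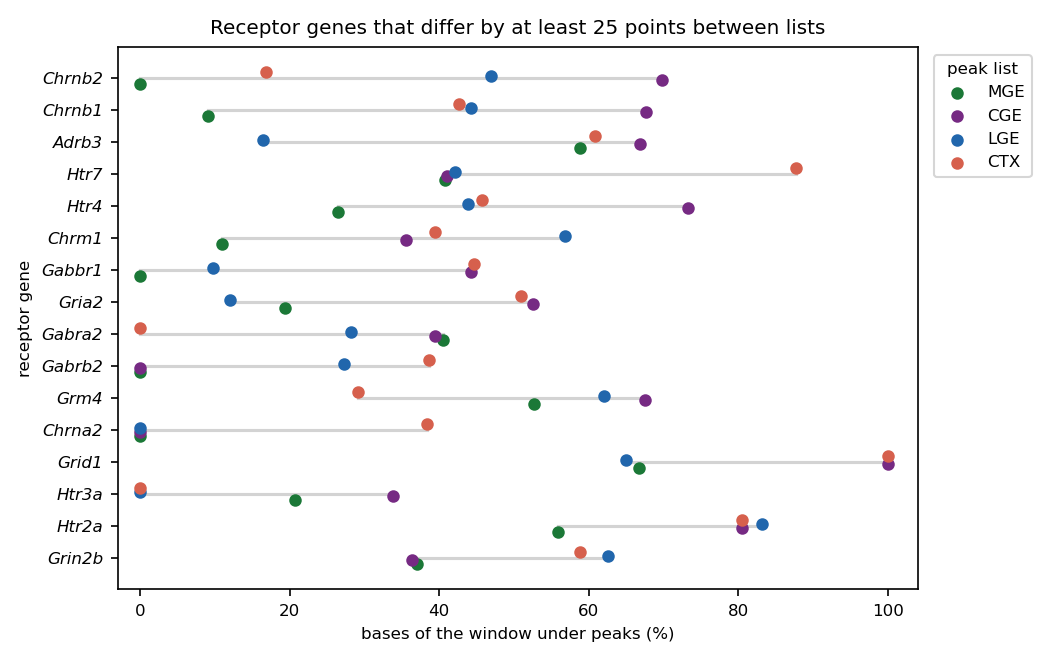
Window coverage in the 4 lists for the 16 receptor genes that differed by at least 25 points between any pair of lists, ordered by their range; each point is 1 list, and points are offset vertically for visibility. Htr7 stands out with CTX alone at the right, and Chrnb2 spans the widest range, from 0 to 69.8%.

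Against the mean of the 3 eminences, 4 receptor genes were at least 25 points higher in CTX (4.35%, against 1.76% of all genes) and 2 were at least 25 points lower (2.17%, against 1.37%). Htr7, a Gs-coupled receptor, had the largest difference, with 40.8% (MGE), 41.0% (CGE), 42.1% (LGE) and 87.7% (CTX). The downstream side of its window was covered alike in the 4 lists (81.7, 81.9, 84.2 and 88.8%). The upstream side had no covered base in the eminences and was covered over 86.5% in CTX, where the peak was 3506 bases wide against 1633 to 1683. The printed Htr7 sequence lies in that extension. Gabrb2, which encodes the main beta subunit of adult GABA-A receptors, had 0% in MGE and CGE, 27.3% in LGE and 38.6% in CTX.

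Chrna2, a neuronal nicotinic subunit, had 0% in the 3 eminences and 38.4% in CTX under 1 peak with a −log10 q of 1.68. Gabbr1 was the fourth gene higher in CTX, although its CGE value (44.2%) was close to that of CTX (44.6%). In the opposite direction, Gabra2, an alpha subunit abundant in the developing forebrain, had 40.5, 39.5 and 28.2% in MGE, CGE and LGE and 0% in CTX, under eminence peaks with a −log10 q of 1.61 to 2.85. Grm4, a presynaptic Gi-coupled receptor, had 52.7, 67.6 and 62.0% in the eminences and 29.2% in CTX.

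Of these 6 genes, Htr7, Gabrb2 and Grm4 kept the 25-point difference when the lists were limited to q under 0.001, when peaks up to 3 kb apart were joined, and when the lists were cut to equal numbers of peaks or equal covered bases. Gabra2, Chrna2 and Gabbr1 kept it in 1 of these 4 settings. The Gabrb2 coverage of LGE (−log10 q of 1.48) was lost at q under 0.001 and at equal covered bases, which left CTX alone. The Grm4 peaks were weak, with a −log10 q of 1.57 (MGE), 3.63 (CGE), 3.21 (LGE) and 2.64 (CTX). At q under 0.001 MGE was at 0% like CTX, and at equal covered bases CGE was, so neither setting kept CTX apart from all the eminences. The Grm4 difference also belonged to the gene record's 5' end, since at the best covered of all coding transcript starts it was 0.950 points in the other direction.

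Differences among the eminences were found at further genes. Chrnb2, the beta subunit of most brain nicotinic receptors, had 0% (MGE), 69.8% (CGE), 46.9% (LGE) and 16.9% (CTX), with a −log10 q of 1.85 to 2.11. Chrnb1, a muscle subunit, had 9.10, 67.7, 44.2 and 42.7%. Adrb3 had 58.9% in MGE, 66.8% in CGE and 60.8% in CTX but 16.4% in LGE, where the upstream side of the window, covered over 86.7 to 96.9% in the other lists, had no covered base. The −log10 q of its peaks was 2.47 (MGE), 8.38 (CGE), 3.35 (LGE) and 2.28 (CTX), and at q under 0.001 its coverage was 0, 66.8, 16.4 and 0%, so that LGE was no longer the lowest. Htr4 had 26.5, 73.3, 43.8 and 45.8%, and Chrm1 had 11.0, 35.6, 56.9 and 39.4%. Htr7, Grin2b, Grid1, Htr2a, Htr4 and Chrm1 kept their main value in every list at q under 0.001 and at equal covered bases. The Grid1 difference was lost when peaks up to 3 kb apart were joined, with 100% in every list. Chrnb1, Adrb3 and Gria2 kept a range of 25 points in all 4 list settings, in some with another order of the lists. The Adrb3 range belonged to the gene record's 5' end. It was 13.6 points at the best covered of all coding transcript starts and 5.17 at any RefSeq mRNA start. At q under 0.001 Gria2 was covered in CTX alone (51.0%), its CGE peak having a −log10 q of 1.66, and Chrnb1 in CGE (67.7%) and LGE (44.2%) alone. Chrnb2 was covered in no list at q under 0.001, and Htr3a, with 33.8% in CGE alone at that setting, fell to a range of 20.7 points at equal covered bases.

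Marked receptor genes had CpG-rich windows. The windows of all 20807 genes were ranked by their number of CpG dinucleotides and divided into quartiles. Of the 14 receptor genes in the poorest quartile none was marked in any list, of 26 in the next 8 were, of 28 in the next 22 were, and of 24 in the richest 20 were. The corresponding shares were 0, 30.8, 78.6 and 83.3%, beside 0.423, 9.82, 19.8 and 29.8% of all genes in the same quartiles. The receptor share was the higher in every quartile but the poorest. The median window held 110 CpG in the 50 genes marked in at least 1 list, 82.0 in the 19 genes covered but never marked, and 44.0 in the 23 without a covered base. The receptor windows held a median of 95.5 CpG against 88.0 for all genes. As the quartile counts show, they were fewer in the poorest quartile, whereas the richest held 26.1% of them, close to the 25% of all genes.

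**Figure D5:**
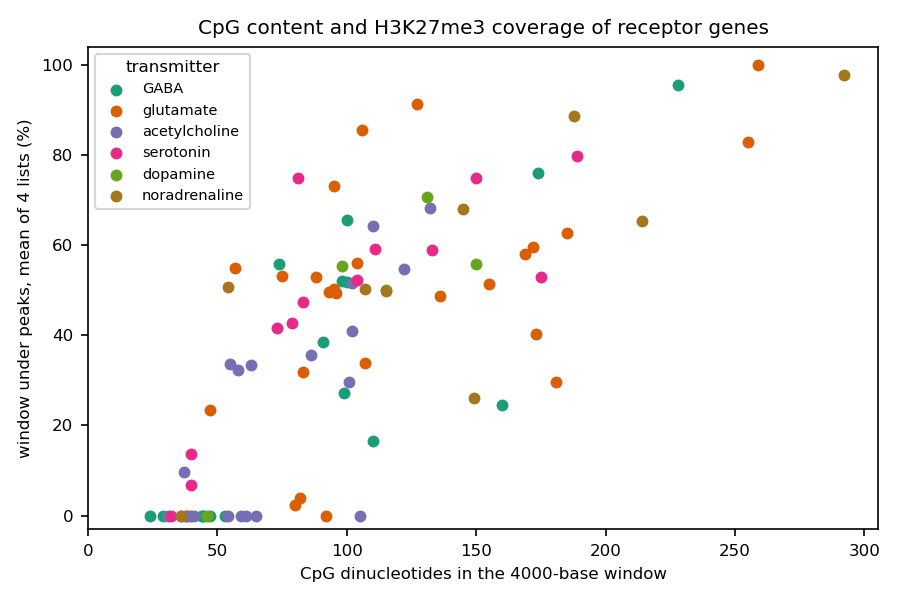
Number of CpG dinucleotides in the 4000-base window (x axis) against window coverage averaged over the 4 lists (y axis), 1 point per receptor gene, coloured by transmitter. Windows at 0% cluster at low CpG numbers, Chrm4 (105) and Grik5 (92) being the richest of them, and Adrb1 (292) and Grik3 (259) lie at the upper right.

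Some uncovered windows were placed at a 5' end that another annotation does not use as the main start. Of the 23 receptor genes without a covered base, 8 had one at another annotated start of a coding transcript or RefSeq mRNA, and 5 were marked there in at least 1 list. Chrm4, a Gi-coupled muscarinic receptor of striatal neurons, was covered over 76.7, 83.3, 82.8 and 76.8% at a RefSeq start 4882 bases upstream of the gene record. Grin2d, an NMDA subunit of interneurons, was covered over 64.3, 75.1, 70.8 and 66.5% at a start 7949 bases inside the record.

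Others were marked at another start in 2 of the lists. Adra1b had 36.1, 76.2, 44.2 and 76.0% at a start 64878 bases inside. Chrna4, the partner of Chrnb2, had 49.7, 46.6, 79.5 and 75.5% at a start 4241 bases inside. The count of uncovered receptor genes thus fell to 15 when every RefSeq mRNA start was allowed.

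Gene bodies were covered to a small extent. The 92 bodies spanned 14.2 Mb, of which 1.41, 1.76, 1.70 and 2.29% lay under peaks (MGE, CGE, LGE and CTX). At least 1 body base was covered in some list in 78 genes (84.8%, against 44.5% of all genes), and mean coverage of the body reached 10% in 27 (29.3%, against 10.9%). Receptor genes had a median length of 32.0 kb against 17.6 kb for all genes, and the part of length in these shares was not tested. The first 2 kb held 46.8, 42.2, 40.5 and 32.0% of the covered body bases, and exons, which make up 3.69% of the body bases, held 41.6, 37.1, 35.1 and 28.7%.

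The highest body shares belonged to short genes in which 1 peak spans much of the body. Among them were Adra2c (100% in every list, 3.44 kb long), Drd4 (78.6 to 82.2%, 4.46 kb), Adra2a (78.0 to 81.8%, 4.83 kb), Htr1a (45.8 to 67.3%, 4.48 kb) and Adra2b (49.4 to 58.5%, 4.01 kb). All those named are G protein-coupled receptors. Chrne, a muscle nicotinic subunit, had 44.1 to 52.3% of its body covered without a covered base around its 5' end. The group with no covered base in window or body comprised 14 genes, among them Gabra6, Gabrg1, Gabrp, Gabrr2, Gabrr3, Chrm4, Chrm5, Chrna1, Chrna6, Chrna9, Chrna10, Chrnb3 and Htr2b.

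Long receptor genes carried separate peaks far from the 5' end, and their number differed between lists. Outside the windows the bodies held 47 (MGE), 70 (CGE), 75 (LGE) and 111 (CTX) peaks, in 25, 29, 29 and 31 genes. Over all protein-coding genes, counted per gene, such peaks numbered 5021, 6666, 5675 and 6167, so the ratio of CTX to LGE was 1.48 for the receptor genes and 1.09 for all. At equal covered bases the receptor genes held 47, 39, 63 and 64 such peaks, and all genes 5021, 3336, 4672 and 3516. The ratio of CTX to LGE was then 1.02 for the receptor genes and 0.753 for all. It was lower in both sets than before the cut, and remained higher for the receptor genes. A few long genes weighed on it. Grid1 and Grik4 held 23 and 11 of the 111 CTX peaks, and 6 and 2 of the 75 LGE peaks, before the cut. At equal covered bases Grid1 held 11 of 64 in CTX and 4 of 63 in LGE. The ratio is therefore not a trait of the receptor genes at large. Before this cut, 9.01 to 21.3% of the receptor gene peaks touched the window of another coding transcript start of the same gene. Grid1, which spans 763 kb, held 1, 1, 6 and 23 such peaks in that order, and in CTX they lay 61.5 to 556 kb from the 5' end with fold enrichments of 1.60 to 3.10. Its body was covered over 0.423, 0.449, 1.69 and 5.01%. When the lists were cut to equal covered bases the CTX peaks of Grid1 numbered 11, against 1, 0 and 4 in MGE, CGE and LGE.

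Grik4 also held the most in CTX, with 2, 3, 2 and 11 peaks outside the window and 1.23, 1.72, 1.07 and 3.63% of its body covered. The strongest of its CTX peaks had a −log10 q of 11.5, 3.85 and 3.56, and the rest 1.08 to 2.23. In the other lists all its peaks had 3.53 or more. At q under 0.001 most of the CTX peaks of Grik4 were thus lost and none of the others, so its excess in CTX rested on weak peaks. Gabbr2 had 4, 8, 9 and 10, and its body coverage was 2.01, 2.74, 2.34 and 6.41%. Adra1b had 2, 5, 5 and 7, with 2.62, 7.71, 6.65 and 11.2% of its body covered. Grik3 differed from these in holding many peaks in every list, 8, 14, 13 and 14, and its body coverage of 8.67 to 11.3% was highest in CGE and not in CTX.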

How the data were processed

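H3K27me3 CUT&Tag of 11 samples was processed by the authors. Per their methods and the labels, reads were aligned to GRCm38 (mm10) with Bowtie2, blacklisted regions and Picard duplicates were removed, the samples of a region were merged with SAMtools, and broad peaks were called with MACS. The MACS version and any control are not given in the sources used here. Each of the 4 lists was deposited with the fold of a peak, a ratio over local background, a −log10 p-value and a −log10 q-value. The fold and −log10 q are quoted as deposited by the authors, and the −log10 p was not used.

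Peaks were joined within a list, and covered bases were counted in windows and gene bodies of GENCODE M21 with Python 3.11.15, numpy 2.4.6 and pandas 2.3.3. The counting was checked base by base on simulated intervals. RefSeq promoter sequences (GRCm38.p6) matched 66 of the 92 genes. The members, gene lists and comparisons were chosen with earlier results of these data known. Genes were named if marked in all 4 lists, if they differed by at least 25 points, if highest in their family, or if wholly uncovered, and further genes complete the families. Except in MGE, 2 of the 3 samples of a region share a replicate number, and no sample can be separated in the merged lists. Some receptor genes enter the counts but are not reported by name here. Chromosomes X and Y were left out of the counts. Alternatives were other peak thresholds, list sizes, windows and transcript starts.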

Additional observations from a re-analysis of the deposited data

Results flagged for a closer look

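The rule covered chromosomes 1 to 19 only, and signal was also present at the receptor genes of the X chromosome, which entered no count. Of 5 such genes 4 had a covered base in the window in at least 1 list. Htr2c, a Gq-coupled serotonin receptor, was marked in every list, with 81.9% (MGE), 85.4% (CGE), 85.0% (LGE) and 84.4% (CTX). Gria3, an AMPA subunit, had 27.5, 29.5, 21.7 and 30.6%, and the GABA-A subunit gene Gabrq had 26.2, 31.6, 41.4 and 25.9%. Gabre had 8.28% in MGE and 14.5% in CGE and no covered base in LGE or CTX, and Gabra3 had none in any list. No control list was at hand, and the lists do not separate embryos by sex.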

How the results depend on the processing

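No paired analysis was possible because the samples of each region had been merged before peaks were called, and for the same reason no sample could be left out. Counts and medians over the receptor genes kept within 1.5 times their value in 65 of 91 recalculations, and the other 26 follow. With only the 2 kb upstream of the 5' end, 13 (MGE), 19 (CGE), 13 (LGE) and 19 (CTX) genes were marked, 8 in all 4 lists, and 4 were lower in CTX. With any 1 covered base as the criterion the counts were 63 in MGE, 65 in LGE, 66 in CTX and 60 in all 4 lists. The count lower in CTX was 1 with equal numbers of peaks, with any coding transcript start and with any RefSeq mRNA start, an alternative added after the data were seen that also left 15 genes without a covered base. At a difference of 50 points 0 genes were higher and 0 lower in CTX. The median share of the body covered, 1.58, 2.68, 2.19 and 3.03% in MGE, CGE, LGE and CTX, became 1.03% in MGE, 1.65% in CGE and 1.92% in CTX at q under 0.001, and 1.38% in CGE and 1.92% in CTX at equal covered bases. Peaks outside the windows, counted under settings added after the data were seen, numbered 41 in CGE, 47 in LGE and 61 in CTX at q under 0.001, and 39 in CGE and 64 in CTX at equal covered bases. Of the differences between CTX and the eminence mean, that of Grm4 turned to 1.23 points upstream only, 0.950 at any coding transcript start and 6.17 at any RefSeq start, and that of Gabbr1 to -5.05 points upstream only. The cause was not tested. Peak lists carry no read counts, so a missing peak may be a depth limit, and marking of a window says nothing of its level of trimethylation.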
